A study of Rattus norvegicus with 9 samples.

Results

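A set of 49 genes, of 34784 rows in the count table, was lower in rat hypothalamus 1 d after PEL surgery and back near its Control level at 7 d. The members were chosen by their measured values, on CPM, counts scaled to the total of each library. A row was kept when its Control mean was at least 5 CPM and when its 1 d mean was at least 0.6 lower, on the log2 scale after 1 CPM was added, than both the Control and the 7 d mean. Its 7 d mean also had to lie within 0.4 of the Control mean on that scale, and all 3 libraries of 1 d had to lie below the other 6. Because the rule used all 3 contrasts, the members' levels and differences are given as a description and support nothing beyond it. Calls from a fit of all genes are counted beside the calls among all genes, and nothing is read from them.

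The tissue held the supraoptic and paraventricular nuclei of the hypothalamus of S-D rats and was profiled by bulk RNA sequencing. The 3 groups were Control, 1 d after PEL surgery and 7 d after PEL surgery, each with 3 libraries. PEL is not spelled out in the labels. In the study's paper it stands for an electrical lesion of the pituitary stalk, used as a model of central diabetes insipidus. The labels give neither the age of the rats nor what was done to the Control rats, and do not state whether a library came from a single animal, so the spread between libraries may be partly technical.

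The supraoptic and paraventricular nuclei hold the magnocellular neurons, whose cell bodies make vasopressin and oxytocin and whose axons run through the pituitary stalk to the posterior pituitary. Vasopressin makes the kidney retain water, and its loss leads to the passage of large volumes of dilute urine. A stalk lesion cuts these axons at a distance from the cell bodies, so tissue around the nuclei can hold injured neurons together with uninjured neurons, glia and vessels. The level of an mRNA in such tissue reflects its synthesis, its decay and the mix of cells that were sampled. In bulk samples, fewer cells of a type and less RNA per cell cannot be told apart.

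The count table does not pair its gene IDs with gene names, and 0 of the 49 members could be matched to a symbol in the rat gene table used here. No function, sequence or cell type is therefore given for any member, and the labelled tissue could not be checked against its marker genes. The members are described by their levels, and 4 of them by ID: the 2 with the largest difference between 1 d and Control, and the 2 others with the largest difference between 7 d and 1 d. Every other member is called by its rank, where rank 1 is the member with the largest difference between 1 d and Control.

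Of the 34784 rows, 12089 had a Control mean of at least 5 CPM, and 180 of these were at least 0.6 lower at 1 d than in Control. The condition on 7 d against 1 d left 89 rows and the band around Control left 70. The separation of the libraries left the 49 members. All 3 libraries of 1 d lay below the other 6 in 12.2% of the 12089 rows, and in all 49 members by construction. The same thresholds turned round, for genes higher at 1 d only, kept 641 rows, whose median log2 difference was 0.82. The balance between the 2 sets depended on the scaling: with TMM library sizes there were 98 rows lower and 503 rows higher at 1 d only.

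The members were part of a larger set of genes that were low at 1 d. In 92 of the 12089 rows the 1 d mean was at least 0.6 below Control with all 3 libraries of 1 d below all 3 of Control. At 7 d, 70 of these 92 rows lay within 0.4 of Control, 17 were lower by 0.4 or more and 5 were higher by 0.4 or more. Over all 12089 rows the log2 difference between 7 d and Control had quartiles of -0.13 and 0.08. A 7 d mean within 0.4 of Control was thus common among all rows, and nothing is read from the count of 70. The 2 comparisons with Control share the same Control libraries.

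**Figure D1:**
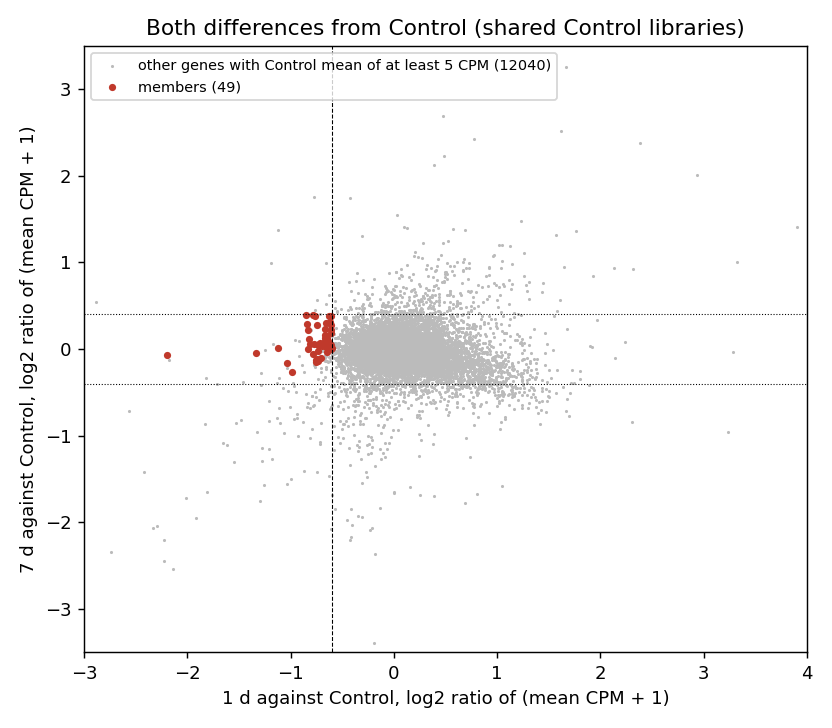
Each point is a gene with a Control mean of at least 5 CPM. The horizontal axis gives the log2 ratio of 1 d to Control and the vertical axis that of 7 d to Control, both from group means with 1 CPM added. The dashed line marks a difference of 0.6 and the dotted lines the band of 0.4. The 49 members (red) lie left of the dashed line and inside the band, and most of them lie close to the dashed line.

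The size of the difference at 1 d was modest for most members. The median 1 d level was 59.6% of Control, with a range from 11.5 to 65.6%, so that Control exceeded 1 d by a median of 1.68-fold and by at most 8.70-fold. The ratio was 2-fold or more in 7 members. The log2 difference of the rule lay between 0.6 and 0.7 in 24 members, close to the threshold that defined them. At 7 d the median level was 104% of Control, with a range from 82.8 to 136%, and 31 members lay within 10% of Control. The rule bounded this range. The log2 difference of the rule between 7 d and Control had quartiles of -0.002 and 0.23 among the members. Over the 12089 rows they were -0.13 and 0.08, so closeness to Control at 7 d was not particular to the members.

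The largest difference was that of ENSRNOG00000005017, a low-abundance transcript. Its levels were 8.79, 7.44 and 6.52 CPM in Control, 0.231, 1.03 and 1.35 CPM at 1 d, and 6.96, 6.99 and 7.52 CPM at 7 d. The Control and 7 d libraries overlapped, while the highest 1 d library stood 4.83-fold below the lowest of the other 6. The means were 7.58 ± 1.14, 0.872 ± 0.577 and 7.16 ± 0.316 CPM (SD, n = 3 each), an 8.70-fold difference between Control and 1 d. Only 38 counts were behind the 1 d value, 4, 16 and 18 in the 3 libraries, and the pooled 1 d level had an exact 95% Poisson interval of 0.583 to 1.13 CPM, which covers counting error only. The pooled Control level, from 455 counts, had an interval of 6.89 to 8.30 CPM. In the edgeR fit its log2 difference between 1 d and Control was -3.24 (SE 0.418).

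The second largest difference was that of ENSRNOG00000019404. It was measured at 17.3, 9.02 and 10.3 CPM in Control, 4.63, 3.75 and 4.27 CPM at 1 d, and 11.9, 6.88 and 16.5 CPM at 7 d. The 1 d libraries were close together, while both other groups were spread widely and overlapped each other. The lowest library outside 1 d, 7 d replicate 2, was 1.49-fold above the highest 1 d library. Control was 2.89-fold above 1 d on average, and 7 d was 2.79-fold above it (edgeR log2 difference between 1 d and Control -1.62, SE 0.352).

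Among the other members, ENSRNOG00000010282 and ENSRNOG00000023162 had the largest differences between 7 d and 1 d. ENSRNOG00000010282 stood at 7.30, 5.81 and 6.42 CPM in Control, 3.76, 2.84 and 2.85 CPM at 1 d, and 6.37, 8.05 and 12.2 CPM at 7 d. Its 7 d mean was 136% of Control, the highest share among the 49 members, but 7 d replicate 1 lay within the Control range. ENSRNOG00000023162 stood at 19.5, 14.7 and 14.5 CPM in Control, 8.27, 10.7 and 8.10 CPM at 1 d, and 21.6, 17.0 and 26.4 CPM at 7 d. Its 7 d mean was 133% of Control, and its Control and 7 d libraries also overlapped. From 1 d to 7 d the 2 genes differed by 2.82-fold and 2.40-fold (edgeR log2 differences 1.57, SE 0.253, and 1.35, SE 0.204).

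**Figure D2:**
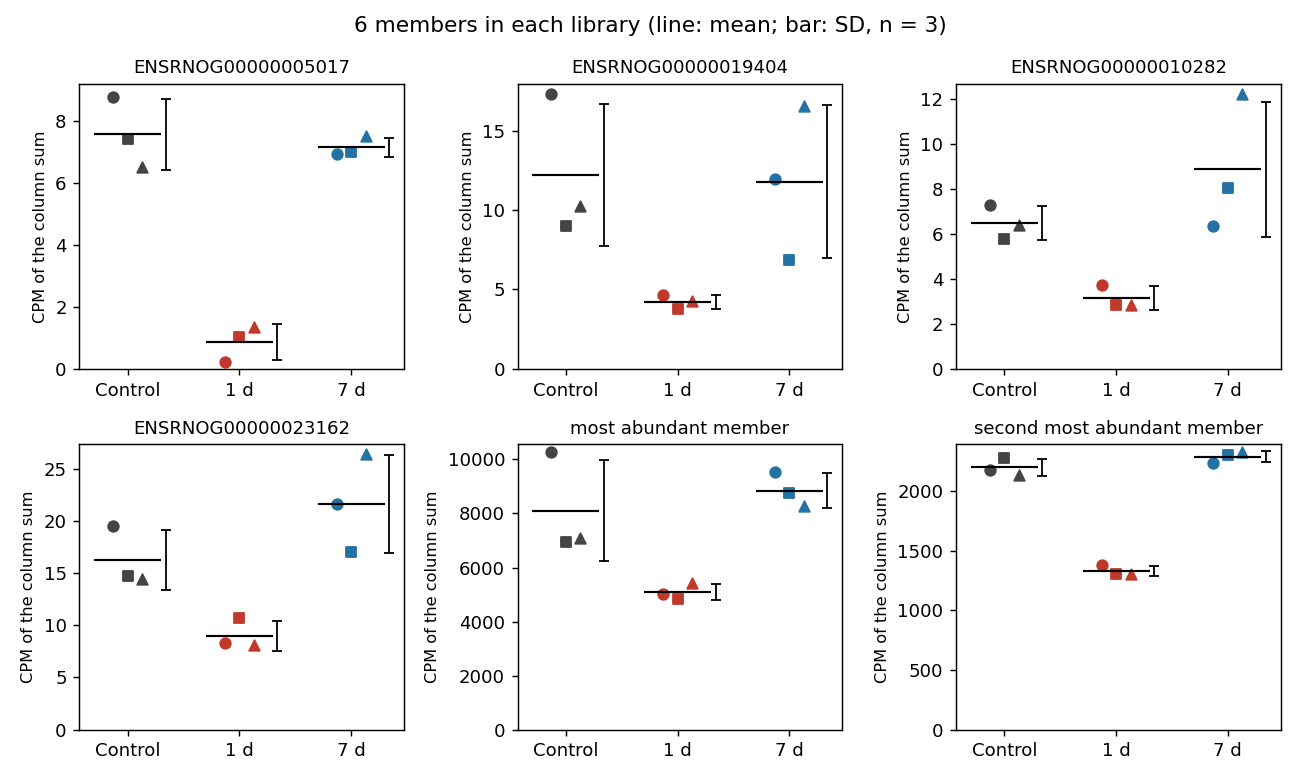
Levels in CPM of the library total (vertical axis) in Control, 1 d and 7 d for the 4 members given by ID and the 2 most abundant members. Points are libraries (circle, square and triangle for replicates 1, 2 and 3), lines are means and bars are SD (n = 3). In each panel the 3 libraries of 1 d lie below the other 6 by construction. ENSRNOG00000005017 lies nearest to 0 at 1 d and the second most abundant member has the least spread.

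The most abundant members showed the same course at levels far above those of the 4 genes given by ID. The most abundant, rank 28, was measured at 10283, 6941 and 7105 CPM in Control, 5028, 4843 and 5419 CPM at 1 d, and 9529, 8745 and 8275 CPM at 7 d. Control replicate 1 was the highest of the 9 libraries, and the other 2 Control libraries lay below all of 7 d. The second most abundant, rank 23, was measured at 2180, 2276 and 2139 CPM in Control, 1378, 1303 and 1305 CPM at 1 d, and 2234, 2307 and 2328 CPM at 7 d. Its libraries were tightly grouped, and the 1 d mean of 1329 ± 42.8 CPM was 1.65-fold below the Control mean of 2199 ± 70.1 CPM (SD, n = 3 each). Between 17400 and 23832 counts per library were behind its 1 d values.

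Because of these 2 transcripts, the 49 members together held a visible share of each library. They took 1.54, 1.17 and 1.15% of all counts in Control, 0.788, 0.770 and 0.833% at 1 d, and 1.45, 1.36 and 1.36% at 7 d. The other 47 members took 0.290, 0.247 and 0.222% in Control, 0.147, 0.156 and 0.160% at 1 d, and 0.277, 0.255 and 0.299% at 7 d. Both shares were lowest in the 3 libraries of 1 d by construction. Control replicate 1 stood above the other 2 Control libraries in both.

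**Figure D3:**
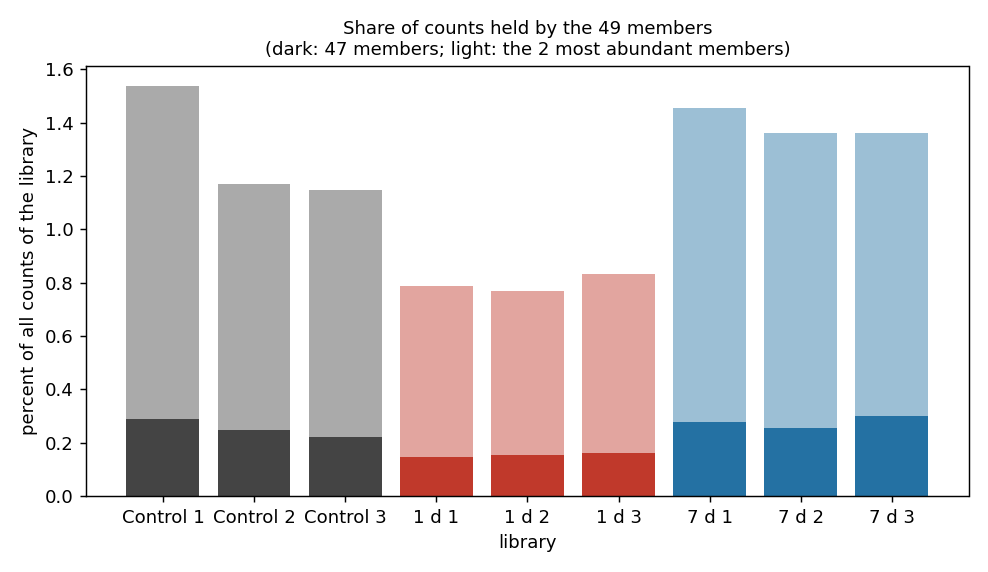
The share of all counts of a library (vertical axis, percent) that the 49 members held, for each of the 9 libraries. The dark part of a bar is the 47 less abundant members and the light part the 2 most abundant. The bars of 1 d end between 0.770 and 0.833%, below the other 6 by construction.

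The members were found at all levels of abundance. Their Control means ran from 5.75 to 8110 CPM with a median of 27.7 CPM, against a median of 32.6 CPM for the 12089 rows. Between 5 and 10 CPM there were 8 members (16.3%, against 15.0% of the 12089 rows), between 10 and 30 CPM 18 (36.7% against 32.3%), and between 30 and 100 CPM 14 (28.6% against 35.0%). Another 7 lay between 100 and 1000 CPM (14.3% against 17.1%), and 2 lay above 1000 CPM (4.08% against 0.695%). Levels were not scaled by transcript length, so they do not rank the genes by the number of transcripts.

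A feature that the rule did not use was the form of the gene ID. Of the 49 members, 12 had IDs outside Ensembl's naming, which is 24.5%, against 3.33% of the 12089 rows with a Control mean of at least 5 CPM. Among the 92 rows that were low at 1 d with no overlap with Control, 15 had such IDs (16.3%). Among the 641 rows that were higher at 1 d only, 24 had them (3.74%). The IDs of the 12 members are made of a label for newly found genes and a number. The table says nothing more of what these 12 rows are. The share was 16.3% with library sizes scaled by TMM, 16 of 98 rows, and with a difference of 0.8 required 1 of 10 rows had such an ID.

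The 12 members spanned low and high levels. Their Control means ran from 5.75 to 249 CPM with a median of 31.1 CPM, and their log2 differences between 1 d and Control from -0.99 to -0.61. The most abundant of them, rank 47, was measured at 269, 245 and 233 CPM in Control, 164, 164 and 162 CPM at 1 d, and 293, 295 and 287 CPM at 7 d. Its 3 libraries of 1 d were nearly equal, and all 3 libraries of 7 d lay above all 3 of Control. The next, rank 24, was measured at 239, 211 and 191 CPM in Control, 135, 119 and 137 CPM at 1 d, and 217, 230 and 228 CPM at 7 d. Here the 7 d libraries lay inside the Control range.

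Rank 5, the one with the largest difference, was measured at 31.5, 17.2 and 17.8 CPM in Control, 9.37, 8.53 and 14.2 CPM at 1 d, and 20.3, 15.7 and 19.1 CPM at 7 d. Its Control mean rested on Control replicate 1, and its 7 d mean, at 82.8% of Control, was the lowest such share of the 49 members. Rank 14 was measured at 50.3, 49.3 and 39.2 CPM in Control, 26.6, 25.8 and 27.5 CPM at 1 d, and 49.4, 44.8 and 49.9 CPM at 7 d. Its libraries were close together at both times after surgery, with Control replicate 3 somewhat below the rest of Control.

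The members differed in how even their libraries were. In 4 of them the highest library was at most 1.2-fold above the lowest in every group, and in 25 at most 1.5-fold. Rank 36 is an example of an even member, at 30.8, 29.0 and 28.7 CPM in Control, 17.8, 17.7 and 19.8 CPM at 1 d, and 28.1, 29.6 and 28.4 CPM at 7 d. Rank 4 was similar at 1 d and 7 d, with 45.1, 40.9 and 35.4 CPM in Control, 20.4, 19.0 and 18.1 CPM at 1 d, and 36.0, 37.3 and 35.4 CPM at 7 d. In both members the gap between 1 d and the other groups was wider than the spread inside any group. With 1 library left out in turn, the rule kept rank 36 in 6 of 9 cases and rank 4 in all 9.

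In other members 1 library set a group's mean. Rank 3 was measured at 13.9, 41.1 and 18.7 CPM in Control, 9.95, 10.6 and 11.8 CPM at 1 d, and 47.4, 13.8 and 13.3 CPM at 7 d, so that Control replicate 2 and 7 d replicate 1 stood far above the rest. The SD was 14.5 CPM in Control and 19.6 CPM at 7 d, in each case larger than the difference of the group's mean (24.6 and 24.8 CPM) from the 1 d mean of 10.8 CPM. Rank 12 showed the opposite, with 162, 177 and 170 CPM in Control, 58.6, 122 and 114 CPM at 1 d, and 161, 173 and 155 CPM at 7 d. There 1 d replicate 1 was much lower than the other 2 libraries of 1 d, which were themselves below all Control and 7 d libraries.

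**Figure D4:**
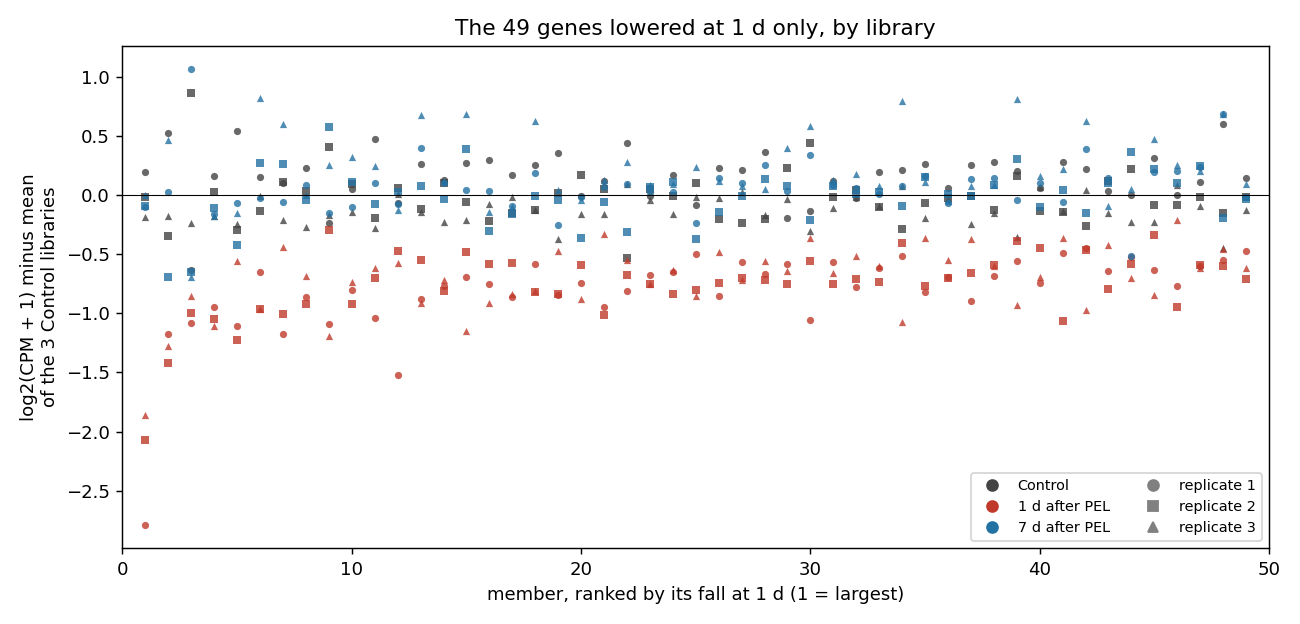
The difference of each library from the mean of the 3 Control libraries, as log2(CPM + 1) on the vertical axis, for the 49 members ranked by their fall at 1 d on the horizontal axis. Colours mark the groups and symbols the replicates. The 1 d libraries (red) lie below the other 6 for every member by construction, and at rank 3 a Control and a 7 d library stand far above the rest.

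Coefficients of variation across libraries had medians of 16.4% in Control, 11.95% at 1 d and 11.2% at 7 d among the members. Over the 12089 rows the medians were 10.2, 7.35 and 6.96%. The members' median was the higher one in each of the 3 groups. The rule chose the members by these same values, and it can favour rows with a wide spread. How far it does was not tested. The highest library was more than 2-fold above the lowest in 2 members in Control, 4 at 1 d and 3 at 7 d.

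Within groups, many members deviated in the same libraries. In Control, replicate 1 was the highest of the 3 in 34 of 49 members and replicate 3 in 2, against 31.0 and 42.4% of the 12089 rows. Replicate 3 was the lowest in 27 members, against 27.5% of rows. At 7 d, replicate 3 was the highest in 29 members and replicate 2 the lowest in 26, against 32.0 and 32.9% of rows. Control replicate 1 above replicate 3 and 7 d replicate 3 above replicate 2 were found together in 33 members, or 67.3%, against 24.0% of rows. The rule chose the members by the means and the order of these same libraries, so it can itself favour such patterns. How far it does was not tested, and nothing is read from these counts.

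At 1 d no library was the highest in most of the members. Replicate 1 was the highest in 12 members, replicate 2 in 13 and replicate 3, the shallowest library, in 24, against 29.96, 29.7 and 40.4% of the 12089 rows. The median difference of the members from their Control mean was -0.74, -0.72 and -0.66 (log2) in the 3 libraries of 1 d. In the Control libraries it was 0.17, -0.02 and -0.15, and in the 7 d libraries 0.06, -0.01 and 0.13. Over all 12089 rows the same medians lay between -0.04 and 0.07 in the 9 libraries. The 3 libraries of 1 d were all shallower (13338433 to 17294334 counts) than those of Control (18948576 to 21012998), and 2 of them were shallower than every 7 d library (17014260 to 18685921). With all libraries thinned to 13338433 counts the rule kept 44 rows, 42 of them among the 49 members.

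The 7 d mean was above the Control mean in 36 of 49 members (73.5%), against 43.6% of the 12089 rows. The rule itself favours this, since a member had to lie at least 0.6 above 1 d at 7 d. That leaves little room below Control for members near the threshold. How far the rule shifts the count was not tested. The rule also kept the 7 d mean within 0.4 of the Control mean. This bounds the difference between the means, and libraries can still be separate inside the band. All 3 libraries of 7 d lay above all 3 of Control in 2 members and below them in 0, beside 16.7% of the 12089 rows that did not overlap in either direction, and nothing is read from these counts. The first of the 2 was rank 47, and the other was rank 46, at 37.7, 35.5 and 40.02 CPM in Control, 21.7, 19.1 and 32.5 CPM at 1 d, and 43.6, 40.6 and 45.1 CPM at 7 d. Without Control replicate 3 the median difference between 7 d and Control in the edgeR fit was -0.0025, and without Control replicate 1 it was 0.18, against 0.06 with all libraries.

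A fit of all genes with edgeR's quasi-likelihood test called 41 of the 49 members lower at 1 d than in Control at a Benjamini-Hochberg adjusted p below 0.05, where 9.01% of all genes tested were called lower. It called 47 members higher at 7 d than at 1 d, where 13.4% of genes were called higher. Between 7 d and Control it called 0 members, where 1.02% of genes were called in either direction, and 1 member had an unadjusted p below 0.05. DESeq2 called 0 members as well, and 340 genes higher and 174 lower of 24996. Without Control replicate 1, edgeR called 2 members, and 340 genes higher and 399 lower of 17665. The rule used all 3 contrasts, and bounded the difference between 7 d and Control directly, so nothing is read from any of these counts. The median log2 difference of the members in this fit was -0.84 between 1 d and Control, against -0.02 over all genes tested, and 0.91 between 7 d and 1 d, against 0.03.

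The members rest on sharp thresholds. The 3 members just inside the difference of 0.6 had values of -0.60, -0.60 and -0.61, and the 3 nearest rows that met every other condition had -0.60, -0.59 and -0.59. In the first of these 3 rows outside, the levels were 15.2, 12.9 and 11.99 CPM in Control, 8.56, 8.53 and 8.47 CPM at 1 d, and 15.0, 15.6 and 14.3 CPM at 7 d, a course like that of the members. In all, 64 rows missed only that condition, 21 only the separation of libraries, 18 only the difference between 7 d and 1 d, 12 only the Control minimum and 6 only the band at 7 d.

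The number of members depended on the scaling and on single libraries. With TMM library sizes, whose factors were 1.03 to 1.06 at 1 d against 0.948 to 1.01 in Control and 0.966 to 0.988 at 7 d, the rule kept 98 rows that included all 49 members. It kept 29 rows without Control replicate 1, 24 of them members, and 75 without 1 d replicate 3, 37 of them members. A group of 11 members was kept whichever library was left out, ENSRNOG00000005017 and ENSRNOG00000019404 among them, while ENSRNOG00000010282 was kept in 6 of 9 cases and ENSRNOG00000023162 in 7 of 9.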

How the data were processed

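The authors deposited 1 table of raw counts per gene, not normalized. Per the submitters' processing notes the tools included DESeq2 1.16.1, featureCounts 1.5.0-p3 and HISAT2 2.0.5; for build, annotation and strand setting the sources used here give nothing, so overlapping, antisense or near-identical genes may share reads. Columns were matched to samples by title. Total counts ran from 13338433 to 21012998 per library. The members and lists were chosen with earlier results of these data known. The rule was applied to CPM of the column sums. All 9 libraries were fitted with edgeR 4.0.16 (R 4.3.3; filterByExpr, TMM, robust quasi-likelihood test, group only), which tested 17345 genes and all 49 members, tested on simulated data first; DESeq2 1.42.0, other scalings, other thresholds and left-out libraries were alternatives. The reference table held an Ensembl ID in 0 of 47357 rows, so 42 lists of pathway genes and markers and 8 promoter motifs, and a naming rule based on symbols (the 25 largest falls and members of those lists), were not used. The 4 IDs and the members described by rank were chosen after their values were seen. Replicate libraries differed beyond counting noise (chi-square per degree of freedom 6.80 to 38.1).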

Additional observations from a re-analysis of the deposited data

Results flagged for a closer look

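In the direct edgeR test of 7 d against 1 d, 47 of the 49 members had changed by a different amount from Control at the 2 times. All 47 were called higher at 7 d, as were 13.4% of all genes tested. The rule that chose the members used this difference, so the count describes the choice and is no separate evidence. Groups of 3 libraries are too small for the check of single libraries that stand apart.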

How the results depend on the processing

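The rule kept 98 rows with TMM library sizes, 93 with DESeq2 size factors, 104 with a difference of 0.5 and 10 with a difference of 0.8, against 49; leaving out 1 library in turn gave 29 to 75. Under the other settings the number stayed between 36 and 70. It was 36 with 2 CPM added, 51 with 0.5 CPM, and 61 and 41 with a Control minimum of 1 and 10 CPM. In alternatives added after the data were seen it was 44 after thinning, 37 with Ensembl IDs only and 70 with no separation of libraries. For the 49 members as chosen, leaving out 1 library gave 29 to 42 called lower at 1 d, beside 596 to 2065 genes. It gave 38 to 47 called higher at 7 d than at 1 d, beside 1306 to 2858 genes. At 7 d against Control it gave 0 to 2, beside 5 to 340 genes higher and 2 to 399 lower. The 2 came without Control replicate 1, which also gave the 340 and 399. These gene counts are out of the 17623 to 17696 tested. Over all 15 alternatives the median log2 difference at 1 d lay between -0.93 and -0.70, and at 7 d between -0.0025 and 0.18. With the replicate number as a block, 36, 44 and 0 members were called, against 41, 47 and 0. Of the 17345 genes tested, the block gave 1128 lower at 1 d, against 1563. It gave 1920 higher at 7 d than at 1 d, against 2320. At 7 d against Control it gave 57 higher and 17 lower, against 146 and 31. The labels do not say what the replicate numbers stand for. Deviations of same-numbered libraries correlated at -0.15 to 0.04 in 9 pairs, and 1 of 9 libraries correlated best with its own number. With 3 libraries per group these correlations cannot exclude a shared batch. Genes higher at 1 d only numbered 503 with TMM library sizes, an alternative added after the data were seen, against 641. The cause of these shifts was not tested. Depth limits ENSRNOG00000005017 most, with 4 counts in 1 d replicate 1.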
